A study of Mus musculus with 8 samples.

Results

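The genes described here are 9 that build the photoreceptor outer segment or keep it in working order: Prph2, Rom1, Prom1, Rp1, Rp1l1, Tulp1, Fscn2, Rd3 and Aipl1. They were picked by name for their known roles, with earlier results of these data known, and are 9 of the 21827 genes in the expression tables. All 9 had exactly 1 row, with an expression estimate in every library.

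The study asked how gene expression differs between rod-lineage photoreceptors and the other cells of the developing mouse retina. RNA was sequenced from whole retinas at embryonic days 15 (E15) and 18 (E18), and at postnatal days 2, 5 and 8 (P2, P5 and P8) from cells sorted by the surface protein Cd73, which marks photoreceptor precursors of the rod lineage. The Cd73-positive cells are called Cd73PC and the Cd73-negative cells Cd73NC. All mice were wild-type of the slc:ICR strain, free of the rd1 and rd8 degeneration mutations. Retinas were pooled before each sort and dissociated with trypsin, and at each age both fractions came from the same pool, whereas the embryonic retinas were not sorted. Each of the 8 conditions is 1 library. With no replicate of any condition, a comparison at 1 age or between ages has no test, and the only test below takes the 3 ages as pairs of fractions.

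The outer segment is a stack of membrane discs that grows from the connecting cilium of a rod or cone and holds the phototransduction proteins. Tetraspanins bend the disc rims, an axoneme of microtubules runs beside the discs and keeps them in order, and newly made proteins reach the discs through the inner segment and the cilium. Chaperones and trafficking factors make and deliver the phosphodiesterase and the guanylate cyclases that set the cyclic GMP level. In the mouse, discs first appear in the postnatal weeks in which these retinas were sampled, and loss of any of these 9 genes damages photoreceptors in mice or humans.

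Levels are given as FPKM, fragments scaled to the length of the transcript and to all mapped fragments of the library, which the authors estimated with Cufflinks. Being per length, levels of different genes can be set side by side within a library. Each value came with confidence bounds below and above, which cover the estimation within 1 library and not the variation between animals. The half-width of the bounds was 0.839% to 16.1% of their midpoint for the 51 member values at 10 FPKM or more, and 11.6% to 69.2% for the 21 values under 10. Of the 72 member values, 48 lay inside their own bounds, 1 lay below and 23 lay above, by 0.129% to 13.7% of the upper bound. Those above were all of Rom1, Prph2, Tulp1, Aipl1 or Rp1l1, which limits comparisons of level between genes. In P8 Cd73PC, for example, Rom1 was listed at 2308 FPKM with bounds of 1988 to 2030. Fold changes were taken on FPKM + 1, and a gene counted as higher or lower when the fold passed 1.5, the threshold that the study used between fractions. The verbs rose and fell are kept for values past that fold.

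The depth of each library was read from the most common ratio of E18 FPKM to its FPKM, among detected genes under 0.3 FPKM in both. It lay between 0.965 and 1.62 times that of E18, and the absolute depth is unknown. The label of the fractions was checked with Nt5e, the gene of Cd73, which stood at 97.3, 131 and 124 FPKM in Cd73PC at P2, P5 and P8 and at 2.43, 31.4 and 9.38 in Cd73NC. The 11 rod markers summed to 4344, 10106 and 16376 FPKM in Cd73PC and to 271, 1238 and 1179 FPKM in Cd73NC at these ages. Of the sum in P2 Cd73NC, Gnb1 alone made up 199 FPKM. This gene stood at 557 FPKM in P2 Cd73PC and already at 235 at E15. Bulk RNA cannot tell fewer photoreceptors in a sample apart from less RNA of a gene in each of them.

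All 9 genes were on the mm9 assembly that the authors used. Prph2 and Tulp1 were on chromosome 17, Rp1 and Rd3 on chromosome 1, Fscn2 and Aipl1 on chromosome 11, Prom1 on chromosome 5, Rp1l1 on chromosome 14 and Rom1 on chromosome 19. The spans ran from 1975 bases at Rom1 (chr19:9001872-9003846, minus strand, 3 annotated exons) to 118396 bases at Rp1 (chr1:4280927-4399322, minus strand), which like Prom1 had 2 start sites in the tables. Exons of Prom1 overlap those of Gm16401 on the opposite strand, and with a library kit that does not keep the strand the reads of these genes cannot be told apart. No such overlap was found in the annotation for the other 8 genes.

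The promoters of Rom1, Prom1 and Aipl1 are shown because Rom1 was the most abundant of the 9 in P8 Cd73PC, Prom1 was the highest at E15, and Aipl1 had the lowest FPKM fold between the fractions at P2 and P5. The sequences are from RefSeq (GRCm38.p6) and run from 250 bases before to 30 bases after the annotated start site, 5′ to 3′ on the gene's strand, at chr19:8929327-8929606 for Rom1, chr5:44101707-44101986 for the first start site of Prom1 and chr11:72037480-72037759 for Aipl1, all on the minus strand. Each matched the mm9 chromosome once, with its start site at the 5′ end of the gene in the deposited tables. Capitals mark exact matches, on either strand, to TAATCC, the core bound by the photoreceptor homeodomain factor Crx, to TGCTGA, part of the element bound by the rod factor Nrl and other Maf proteins, or to GGGCGG, the GC box of the Sp factors.
Rom1: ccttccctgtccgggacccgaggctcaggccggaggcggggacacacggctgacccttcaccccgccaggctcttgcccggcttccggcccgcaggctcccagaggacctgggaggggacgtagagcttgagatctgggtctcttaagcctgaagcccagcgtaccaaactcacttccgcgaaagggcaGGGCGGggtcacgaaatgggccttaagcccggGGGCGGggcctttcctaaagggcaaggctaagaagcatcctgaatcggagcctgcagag
Prom1: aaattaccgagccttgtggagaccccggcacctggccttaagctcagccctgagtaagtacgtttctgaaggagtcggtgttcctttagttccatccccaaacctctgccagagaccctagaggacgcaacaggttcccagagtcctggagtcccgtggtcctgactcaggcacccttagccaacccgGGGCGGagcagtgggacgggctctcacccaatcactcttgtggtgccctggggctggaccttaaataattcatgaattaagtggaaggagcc
Aipl1: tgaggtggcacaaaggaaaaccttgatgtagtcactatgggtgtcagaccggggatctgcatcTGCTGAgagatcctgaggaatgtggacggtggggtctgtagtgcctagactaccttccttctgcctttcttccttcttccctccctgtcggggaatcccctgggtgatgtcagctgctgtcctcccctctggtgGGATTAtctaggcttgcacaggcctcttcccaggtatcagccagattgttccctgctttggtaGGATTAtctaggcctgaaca
Aipl1 held TAATCC at 2 positions, both on the opposite strand (GGATTA), at -53 and 11 counted in bases from the start site, and TGCTGA at -187. Rom1 held the GC box at -61 and -29, and Prom1 held it at -62. Of the 7 members with a RefSeq promoter here (Prph2, Rom1, Prom1, Tulp1, Fscn2, Rd3 and Aipl1), with 9 start sites among them, TAATCC and TGCTGA were found at 1 start site each and GGGCGG at 3, the third being that of Fscn2. The search behind these counts ran further past the start site than the sequences shown, over chr19:8929307-8929606 for Rom1. In all 32851 promoters, searched over stretches of that length, the shares were 7.06% for TAATCC, 19.5% for TGCTGA and 35.7% for GGGCGG. A match is a string of letters in this window and not a measured binding site.

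Prph2 and Rom1, the paired tetraspanins of the disc rim, were the most abundant of the 9 genes in every sorted Cd73PC library. Prph2 stood at 0.536 FPKM at E15 and 12.2 at E18, at 424, 1124 and 1811 in Cd73PC at P2, P5 and P8, and at 9.55, 135 and 125 in Cd73NC. Rom1 stood at 4.66 FPKM at E15 and 30.1 at E18, at 873, 1811 and 2308 in Cd73PC and at 29.1, 271 and 210 in Cd73NC. For both genes the 3 Cd73PC libraries were the highest of the 8 and E15 was the lowest. In P8 Cd73PC, Rom1 ranked 4 and Prph2 ranked 7 by FPKM among all genes. The rank of Prph2 over Gnb1, next at 1809 FPKM, is not settled. The bounds of Gnb1 there, 1825 to 1855, lay above those of Prph2, 1662 to 1691. On the log2(FPKM + 1) scale Prph2 was higher in Cd73PC than in Cd73NC by 5.33, 3.04 and 3.85 at the 3 ages.

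The balance between the rim proteins' transcripts moved toward Prph2 with age. The ratio of Prph2 to Rom1 FPKM was 0.115 at E15, 0.407 at E18, and then 0.486, 0.621 and 0.785 in Cd73PC at P2, P5 and P8. In Cd73NC the ratio was 0.328, 0.4997 and 0.593. At each postnatal age it was higher in Cd73PC than in Cd73NC, and in both fractions it increased from one age to the next. Cngb1, the rod channel subunit that binds the rim tetraspanins, was at 0.837 FPKM at E18, at 83.5, 296 and 436 in Cd73PC and at 0.533, 21.8 and 26.2 in Cd73NC.

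Prom1, a membrane protein of the sites where new discs form and also of neural progenitor membranes, was the only one of the 9 above 10 FPKM at E15. Prom1 stood at 19.3 FPKM at E15 and 20.8 at E18, at 163 (P2), 256 (P5) and 322 (P8) in Cd73PC and at 19.9, 58.5 and 26.8 in Cd73NC. The bounds of the embryonic libraries and of P2 Cd73NC overlapped, and all 3 Cd73PC libraries lay above the other 5. It was the only gene of the 9 that fell at any step of these comparisons, from P5 to P8 in Cd73NC, by 1.09 on the log2(FPKM + 1) scale. The progenitor markers, 10 genes, summed to 1872, 482 and 108.3 FPKM in Cd73NC at P2, P5 and P8, and to 480, 137 and 23.2 in Cd73PC. Their part in the level of Prom1 was not tested. Its relative Prom2 was listed at 0 in 6 libraries, and the other values, at E18 and in P2 Cd73NC, were 0.0164 and 0.0260 FPKM.

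Rp1 and Rp1l1 are related microtubule-binding proteins of the outer segment axoneme. Rp1 stood at 0.150 FPKM at E15 and 3.21 at E18, at 113, 252 and 472 in Cd73PC and at 1.46, 28.2 and 21.5 in Cd73NC. Rp1l1 stood at 0.753 FPKM at E15 and 2.68 at E18, at 28.6, 89.0 and 161 in Cd73PC and at 1.92, 12.9 and 10.7 in Cd73NC. In both genes every Cd73PC library was above every other library, and within Cd73NC the P2 library was far below P5 and P8. With 1 FPKM added, the log2 ratio of Rp1 between Cd73PC and Cd73NC at P8, 4.39, was the highest of all 21817 genes with a value in both libraries. At P2 the Rp1 ratio was 5.53, a value that rests on a Cd73NC level of 1.46 FPKM and is 6.27 with nothing added.

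Rp1 was more abundant than Rp1l1 in every postnatal library but P2 Cd73NC. The ratio of Rp1 to Rp1l1 FPKM was 3.94, 2.83 and 2.94 in Cd73PC at P2, P5 and P8 and 0.760, 2.18 and 2.00 in Cd73NC. At E18 it was 1.20, with overlapping bounds, as in P2 Cd73NC. Both axonemal genes rose from P5 to P8 in Cd73PC, Rp1 by 0.90 and Rp1l1 by 0.84 on the log2(FPKM + 1) scale.

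Tulp1, the photoreceptor member of the tubby family, takes part in carrying proteins toward the outer segment. Tulp1 stood at 6.38 FPKM at E15 and 25.8 at E18, at 335, 566 and 653 in Cd73PC and at 16.1, 93.1 and 65.9 in Cd73NC. All 3 Cd73PC libraries were above the rest, and E18 lay above P2 Cd73NC. In Cd73PC the step from P5 to P8 was 1.15-fold in FPKM, under the 1.5-fold threshold, whereas the step from P2 to P5 was 1.69-fold.

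Fscn2, the photoreceptor fascin that bundles actin where discs begin, was the least abundant of the 9 genes in every library from E18 on. Fscn2 stood at 0.498 FPKM at E15 and 0.262 at E18, at 2.79, 9.43 and 18.4 in Cd73PC and at 0.414, 1.33 and 1.68 in Cd73NC. The bounds of E15, E18 and P2 Cd73NC overlapped, as did those of P2 Cd73PC and P8 Cd73NC. In P8 Cd73PC the next gene up, Rd3, was 8.49 times as abundant. Because these levels are low, the pseudocount held down the log2 ratios of Fscn2: the values for the fractions at P2, P5 and P8 were 1.42, 2.16 and 2.86, and 2.75, 2.83 and 3.45 with nothing added.

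Rd3 holds the photoreceptor guanylate cyclases inactive and carries them from the endoplasmic reticulum to the outer segment. Rd3 stood at 0.916 FPKM at E15 and 4.14 at E18, at 65.6, 156 and 156 in Cd73PC at P2, P5 and P8 and at 3.67, 25.7 and 31.7 in Cd73NC. It alone of the 9 had overlapping bounds between P5 and P8 in Cd73PC. The cyclase gene Gucy2e followed another course in Cd73PC, with 13.5, 48.3 and 104 FPKM, and stood at 0.559, 6.09 and 8.00 in Cd73NC. The ratio of Rd3 to Gucy2e FPKM was therefore 4.84, 3.24 and 1.503 in Cd73PC, against 6.56, 4.23 and 3.96 in Cd73NC. The other cyclase gene, Gucy2f, was at 0.523, 4.32 and 16.2 FPKM in Cd73PC and at 0.0480, 0.288 and 1.03 in Cd73NC.

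Aipl1 is the chaperone that folds the cyclic GMP phosphodiesterase of rods and cones. Aipl1 stood at 1.504 FPKM at E15 and 12.3 at E18, at 57.4, 119.5 and 232 in Cd73PC and at 14.6, 41.3 and 32.6 in Cd73NC. The Cd73PC libraries were the highest, but P2 Cd73PC exceeded P5 Cd73NC by only 1.39-fold. Its folds between the fractions were 3.93 at P2 and 2.89 at P5 in FPKM, the lowest of the 9 at both ages, and 7.12 at P8, where Rd3 at 4.93 was lowest.

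The rod phosphodiesterase subunits had larger folds between the fractions than Aipl1 at each age. The catalytic genes Pde6a and Pde6b together stood at only 1.92 FPKM at E18. Their sum was 113, 379 and 731 FPKM in Cd73PC and 0.486, 34.5 and 38.2 in Cd73NC. Aipl1 therefore equalled 6.43 times their sum at E18, 0.509, 0.315 and 0.317 times in Cd73PC at P2, P5 and P8, and 1.20 and 0.852 times in Cd73NC at P5 and P8. The inhibitory subunit gene Pde6g was at 483, 1492 and 2269 FPKM in Cd73PC and at 21.3, 171 and 171 in Cd73NC. Of the cone subunits, Pde6c, at 0.687, 0.666 and 0.945 FPKM in Cd73PC and 0.896, 0.859 and 1.38 in Cd73NC, passed 1.5-fold at no age. Pde6h, at 19.4, 2.67 and 34.8 FPKM against 15.7, 3.08 and 22.2, passed it at P8 only. Pde6d, a prenyl-binding protein that carries lipid-tagged proteins, stood at 124, 140 and 145 FPKM against 54.7, 65.99 and 65.5.

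**Figure D1:**
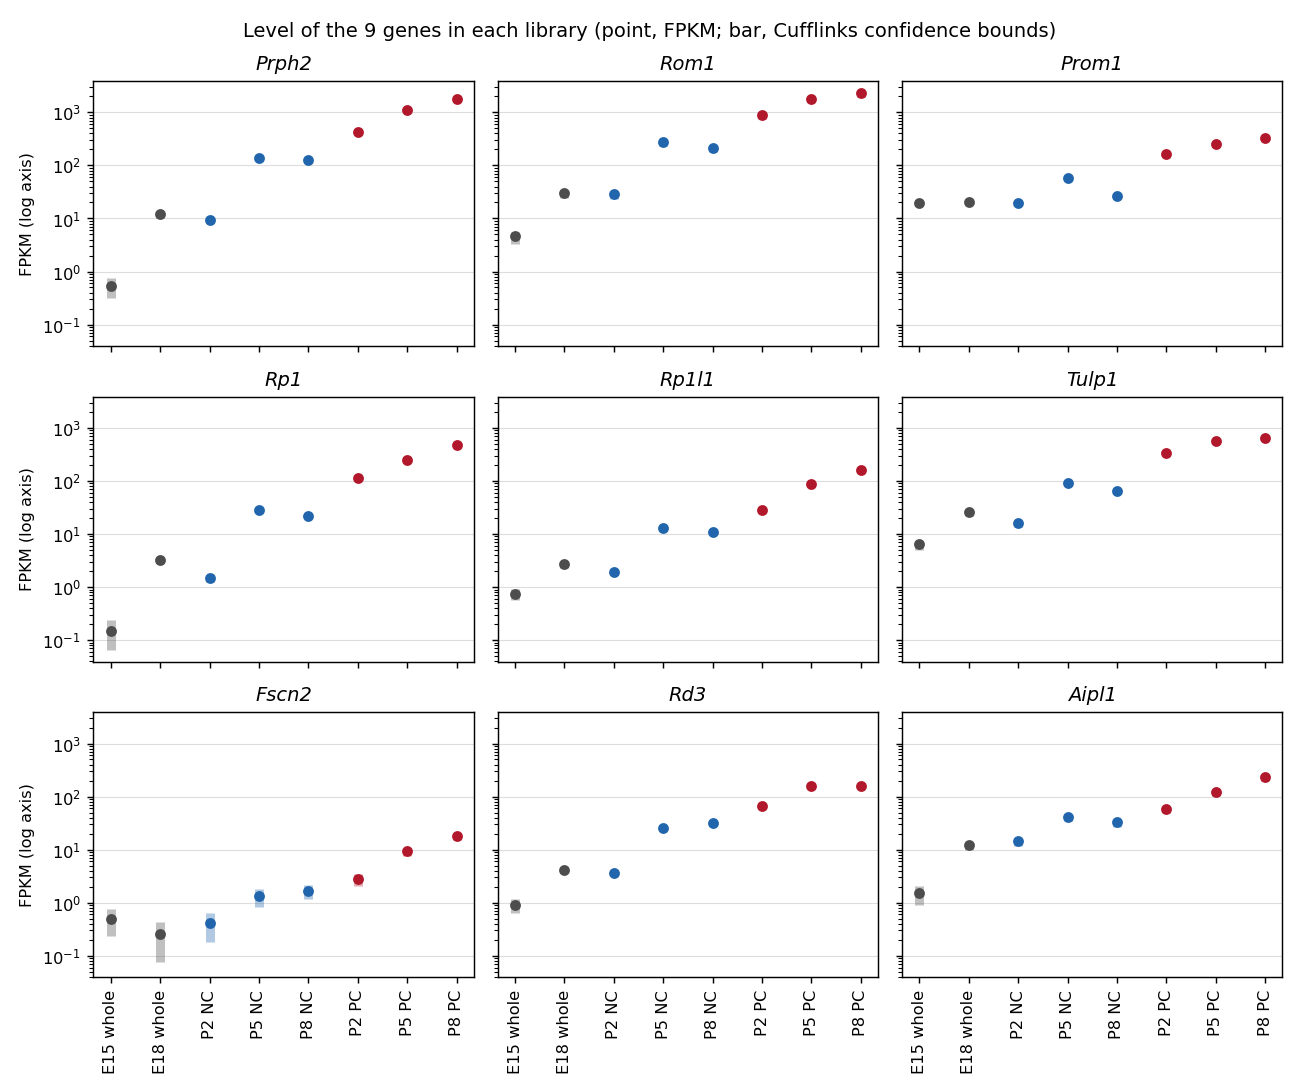
FPKM of the 9 genes on a shared log axis in each of the 8 libraries, with embryonic whole retina in grey, Cd73NC (NC) in blue and Cd73PC (PC) in red; points are FPKM and pale bars the Cufflinks confidence bounds, most of them narrower than the point. The 3 Cd73PC libraries are the highest for every gene, and Prom1 is the only gene above 10 FPKM at E15.

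Between the fractions, all 9 genes were past 1.5-fold higher in Cd73PC at each of P2, P5 and P8. The shares of all tested genes that were so were 8.56%, 7.02% and 7.54% at these ages. With separate confidence bounds also required, the members' counts were still 9 at each age, against 8.37%, 6.76% and 7.42% of all genes. The median log2 ratio of the 9 was 3.83, 2.59 and 3.45 at the 3 ages, against 0, 0 and -0.02 over all genes. Fscn2 and Aipl1 had the lowest log2 ratios at P2, at 1.42 and 1.90, and Aipl1 the lowest at P5, at 1.51.

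Taking the 3 ages as pairs of fractions from the same pools, limma with age as a block found all 9 genes higher in Cd73PC at an adjusted p under 0.05, against 8.90% of 13056 genes. The differences in log2(FPKM + 1) were 4.35 ± 0.44 (SE, 3 pairs) for Rp1, 4.08 ± 0.43 for Prph2 and 3.68 ± 0.41 for Rom1 at the upper end, and 2.15 ± 0.30 for Fscn2 and 2.07 ± 0.26 for Aipl1 at the lower. The limma adjusted p-values, by Benjamini-Hochberg over all 13056 genes, lay between 0.00281 for Rp1l1 and 0.00761 for Fscn2. The error in this fit is the change of the ratio with age and not the spread between animals of 1 age. The fit was chosen after seeing the data, and the 9 genes with earlier results of these data known, so its p-values are not an independent test. Without the filter on low values, which kept genes at 1 FPKM or more in at least 1 sorted library, no gene of 21811 passed, though 5571 genes and all 9 members had an unadjusted p under 0.05. Without the block 2 of the 9 passed, Prom1 and Tulp1, and without the P5 pair 7 did, all but Fscn2 and Rd3.

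For every gene but Fscn2 the log2 ratio at P5 was below that at P2. In Prph2 it went from 5.33 to 3.04, in Rp1 from 5.53 to 3.12, in Prom1 from 2.96 to 2.11 and in Aipl1 from 1.90 to 1.51, whereas in Fscn2 it went from 1.42 to 2.16. From P5 to P8 the ratio increased for every gene but Rd3, which went from 2.56 to 2.26. The sort gene Nt5e took the same course, with 4.84, 2.02 and 3.59 at P2, P5 and P8. So did the median of the 11 rod markers, with 5.22, 3.40 and 3.86. Among these markers Gnat1, Gnb1 and Pde6a had a higher ratio at P5 than at P2.

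**Figure D2:**
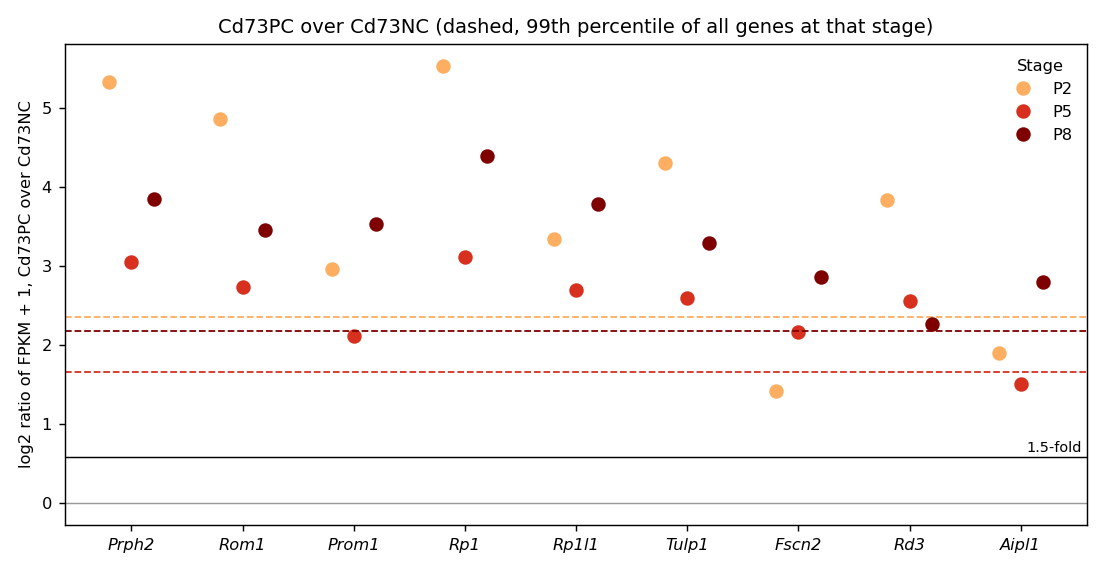
Log2 ratio of FPKM + 1 in Cd73PC over Cd73NC for each gene at P2, P5 and P8, with 1 point per pair of libraries; dashed lines are the 99th percentile of all genes at that age and the black line is 1.5-fold. All 27 points are above 1.5-fold, and those of Fscn2 at P2 and of Aipl1 at P2 and P5 are below the dashed line of their age.

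The level in Cd73NC, read as a share of that in Cd73PC at the same age, had a higher median over the 9 genes than over the rod markers at each age, though not in every gene. At P2 the median share was 5.60% for the 9 genes and 0.804% for the 11 rod markers. At P5 the medians were 15.0% and 8.35%, and at P8 9.11% and 6.55%. Aipl1 had the highest share of the 9 at P2, 25.4%, and at P5, 34.6%, and at P5 and P8 it was above all 11 rod markers. At P8 Rd3 was highest, with 20.3%.

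Rp1 was at the other end, with shares of 1.29%, 11.2% and 4.56% at P2, P5 and P8. At P8 this was lower than in every one of the 11 rod markers, the lowest of which was Pde6b with 5.13%. Prph2 came next at P2, with 2.25%, and had 12.0% at P5 and 6.88% at P8. Tulp1 had 4.80%, 16.4% and 10.1%, and Prom1 had 12.3%, 22.8% and 8.34%.

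Markers of other cell types were measured in both fractions. The 8 Müller glia markers were lower in Cd73PC for 6, 7 and 8 genes at P2, P5 and P8, and the bipolar markers for 2, 6 and 9 of 9, with 3 of the 9 higher at P2. The cone markers were higher in Cd73PC for 5, 2 and 5 of 10, and lower for 0, 1 and 0. They summed to 1425, 1602 and 989 FPKM in Cd73PC against 149, 511 and 284 in Cd73NC. The cone medians were closer, with 15.9, 7.56 and 14.2 FPKM in Cd73PC against 4.29, 6.63 and 5.50 in Cd73NC. By gene, the median log2 ratio of the cone markers was 0.73, -0.16 and 0.53. Most of the 9 genes also act in cones, and the part of cones in their levels was not tested. Markers of the retinal pigment epithelium summed to 61.2 FPKM in Cd73PC against 2.31 in Cd73NC at P2, with 4 of 7 higher and Rpe65 listed at 0 in both, and the 5 microglia markers, all higher, to 35.5 against 6.12. At P5 and P8 no microglia marker was higher, 2 and 1 were lower, and the sums were 28.8 against 43.1 and 98.5 against 128. The pigment epithelium markers summed to 65.6 against 44.0 FPKM at P5 and to 108.4 against 61.1 at P8. Of these 7, 1 and 3 were higher in Cd73PC and 0 were lower. The 10 progenitor markers were all lower in Cd73PC at each age. Of the 6 amacrine markers with values, 1 was higher in Cd73PC at each age and 3, 2 and 2 were lower. Their median levels were 2.103, 0.414 and 0.269 FPKM in Cd73PC and 6.01, 2.18 and 0.716 in Cd73NC. The sums ran the other way, with 55.9, 74.0 and 51.8 FPKM in Cd73PC against 40.3, 49.4 and 13.4 in Cd73NC. The 5 endothelial markers summed to between 12.8 and 35.5 FPKM in Cd73PC and between 72.5 and 169 in Cd73NC. By gene, 0, 1 and 0 of them were higher in Cd73PC at P2, P5 and P8, and 2, 1 and 1 were lower. At P5 their median level was 2.41 FPKM in Cd73PC against 1.13 in Cd73NC. The 7 ganglion cell markers summed to 11.9 FPKM or less in Cd73PC and 20.6 or less in Cd73NC. By gene, 1, 0 and 0 of them were higher in Cd73PC at P2, P5 and P8, and 4, 1 and 1 were lower. The 4 horizontal cell markers summed to 2.97 FPKM or less in Cd73PC and 2.16 or less in Cd73NC. None of these was higher in Cd73PC, and 0, 1 and 1 were lower. Globin and other red cell genes summed to 5170 FPKM in P8 Cd73NC against 2075 in P8 Cd73PC, out of 362589 and 361056 FPKM in all.

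**Figure D3:**
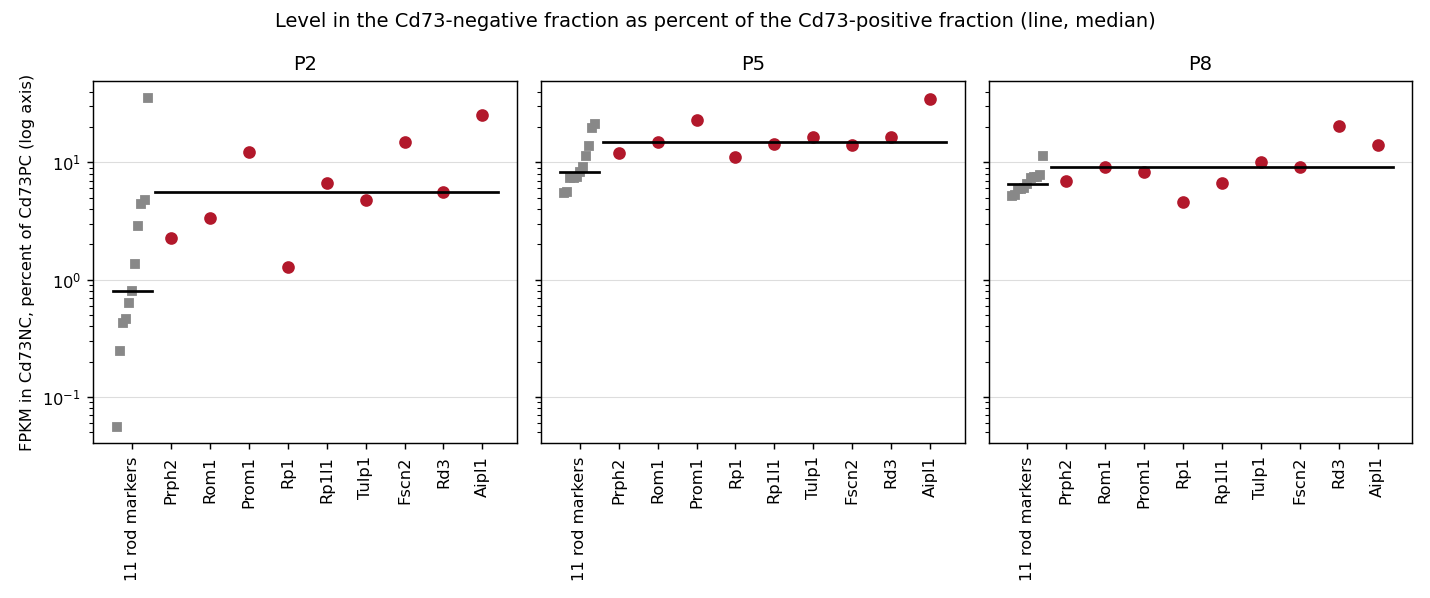
FPKM in Cd73NC as a percent of FPKM in Cd73PC at P2, P5 and P8 on a log axis, for the 11 rod markers (grey squares, sorted by value) and each of the 9 genes (red points); black lines are the medians. The median of the 9 genes is above that of the rod markers at each age, Aipl1 stands high at P2 and P5, and Rp1 is the lowest point at P8.

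In time, the genes did not start together. From E15 to E18, 7 of the 9 rose, against 4.61% of all genes, and Prom1 and Fscn2 were past the threshold in neither direction. Prph2 and Rp1 had the steepest steps there in FPKM, 22.8-fold and 21.4-fold, both from levels under 1 FPKM at E15, so that their log2(FPKM + 1) changes of 3.11 and 1.87 depend on the pseudocount. Aipl1 rose 8.21-fold and Rom1 6.45-fold. From E18 whole retina to P2 Cd73PC all 9 were higher, against 8.78% of all genes, between 4.65-fold for Aipl1 and 35.1-fold for Rp1 in FPKM. Age, dissociation and enrichment by the sort cannot be told apart in that step.

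From P2 to P5 all 9 genes rose in Cd73PC, against 3.36% of all genes, from 1.58-fold for Prom1 to 3.39-fold for Fscn2. From P5 to P8 in Cd73PC 5 of the 9 rose, against 3.31% of all genes: Fscn2 by 1.95-fold, Aipl1 by 1.94-fold, Rp1 by 1.87-fold, Rp1l1 by 1.80-fold and Prph2 by 1.61-fold. The other 4, Rom1, Prom1, Tulp1 and Rd3, were between 0.998-fold and 1.27-fold. None of the 5 reached 2-fold.

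Set against the P8 Cd73PC level, the genes differed in how early they came near it. At P2 Cd73PC, Tulp1 was already at 51.3% and Prom1 at 50.5% of its P8 level, Rd3 at 42.0% and Rom1 at 37.8%. Aipl1 at 24.7%, Rp1 at 23.9% and Prph2 at 23.4% were lower, and Rp1l1 at 17.8% and Fscn2 at 15.1% were lowest. By P5 Rd3 was at 100.2% and Tulp1 at 86.7%, while Rp1l1 was at 55.5%, Rp1 at 53.5%, Aipl1 at 51.5% and Fscn2 at 51.3%. The median of the rod markers was 19.1% at P2 and 63.3% at P5, with a range at P2 from 3.61% for Gnat1 to 83.3% for Nr2e3. The 9 genes, from 15.1% to 51.3% at P2, all lay inside that range.

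**Figure D4:**
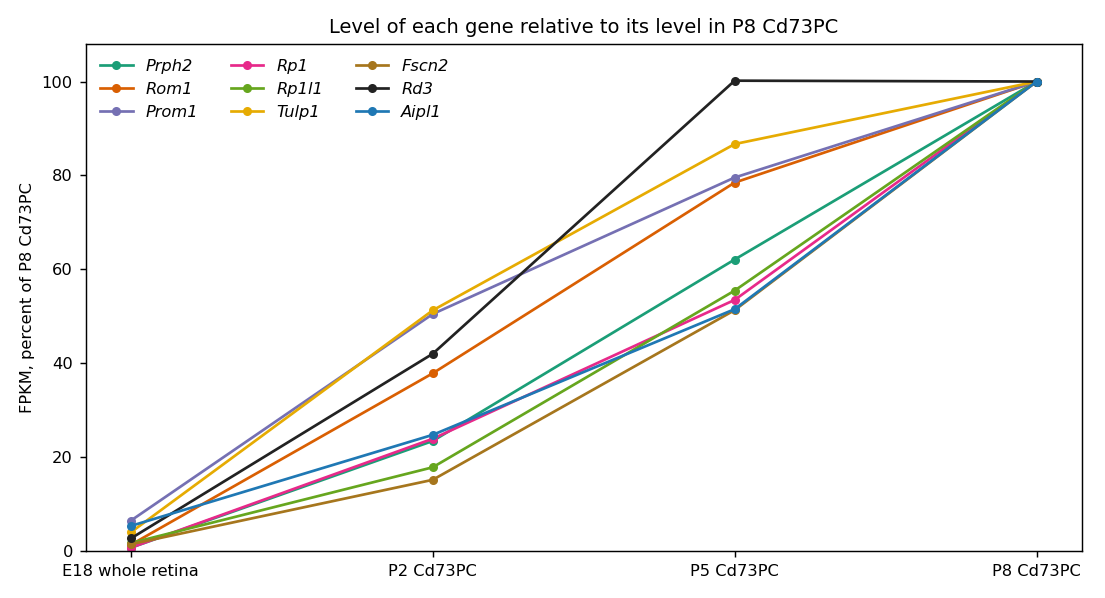
FPKM of each gene in E18 whole retina and in Cd73PC at P2, P5 and P8 as a percent of its level in P8 Cd73PC, 1 library per point. Tulp1 and Prom1 are at about 50.5% to 51.3% at P2, Rd3 reaches its P8 level at P5, and Fscn2 and Rp1l1 are the lowest at P2.

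The Cd73NC libraries took another course. From P2 to P5 all 9 genes rose in Cd73NC, against 7.93% of all genes, from 2.83-fold for Aipl1 to 19.3-fold for Rp1 in FPKM. From P5 to P8 none of the 9 rose, against 8.47% of all genes, and 1, Prom1, fell, against 7.78%. The other 8 had log2(FPKM + 1) differences between -0.49 for Tulp1 and 0.29 for Rd3. Of the 11 rod markers in Cd73NC, 10 rose over the earlier step, and 4 rose and 2 fell over the later one. The 9 genes together made up 0.541%, 1.16% and 1.70% of the summed FPKM in Cd73PC at P2, P5 and P8, and 0.0244%, 0.185% and 0.145% in Cd73NC, against 0.00937% at E15.

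Of 24 other genes of outer segment structure, protein transport and photoreceptor upkeep, 17, 18 and 19 were higher in Cd73PC at the 3 ages, and 1 was lower at P8. Their median log2 ratios were 1.94, 1.498 and 2.23, below the 3.83, 2.59 and 3.45 of the 9 genes. Near the top of the list was Nxnl1, the gene of rod-derived cone viability factor, with 61.2, 132 and 175 FPKM in Cd73PC against 1.58, 17.7 and 10.1 in Cd73NC. At its lower end was Rp9, a splicing-related gene of retinitis pigmentosa, with 24.9, 16.9 and 12.5 FPKM against 28.4, 18.4 and 21.5. Rp2h, whose product acts in ciliary transport, was near Rp9 with 9.15, 5.73 and 5.32 FPKM in Cd73PC against 8.81, 7.31 and 7.12 in Cd73NC. In the step from P5 to P8 in Cd73PC, 4 of the 24 rose and none fell, with a median of 0.15 against 0.69 for the 9 genes.

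The close relatives of the 9 genes mostly did not share their pattern. Of 11 relatives, 2, 3 and 2 were higher in Cd73PC at the 3 ages and 4 were lower at each. Fscn1, the fascin of neurons and many other cells, ran against Fscn2, with 117, 79.0 and 48.3 FPKM in Cd73PC and 246, 284 and 290 in Cd73NC. Even in P8 Cd73PC, where Fscn2 was at its highest, Fscn1 was more abundant. Fscn3, the testis fascin, was listed at 0 in 4 libraries and was under 0.1 FPKM in the others.

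In the tubby family, Tub, the founding member, was, like Tulp1, higher in Cd73PC at every age, at 23.7, 49.8 and 70.1 FPKM in Cd73PC and 2.60, 7.68 and 12.7 in Cd73NC, but it also stood at 32.0 at E15, when Tulp1 was at 6.38. Tulp3, which acts at primary cilia, was lower in Cd73PC, at 10.2, 7.82 and 4.65 FPKM against 18.7, 23.5 and 15.7. Tulp4 was at 15.6, 12.9 and 14.4 FPKM against 19.2, 22.8 and 33.4. Tulp2 had its highest level in P8 Cd73PC, at 0.309 FPKM.

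Among the doublecortin relatives of Rp1, Dcx, the marker of migrating young neurons, was at 45.8 FPKM at E15 and 25.6 at E18, and only at 2.12, 0.109 and 0.180 in Cd73PC and 7.49, 0.601 and 1.26 in Cd73NC. Dclk1 was at 32.8 and 21.6 FPKM in the embryo and at 5.02, 1.91 and 2.24 in Cd73PC. Both therefore had their highest levels at E15, where Rp1 and Rp1l1 had their lowest. Dcdc2a was low throughout, at 2.56, 3.58 and 2.87 FPKM in Cd73PC against 0.930, 0.855 and 1.03 in Cd73NC, past 1.5-fold at each age.

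**Figure D5:**
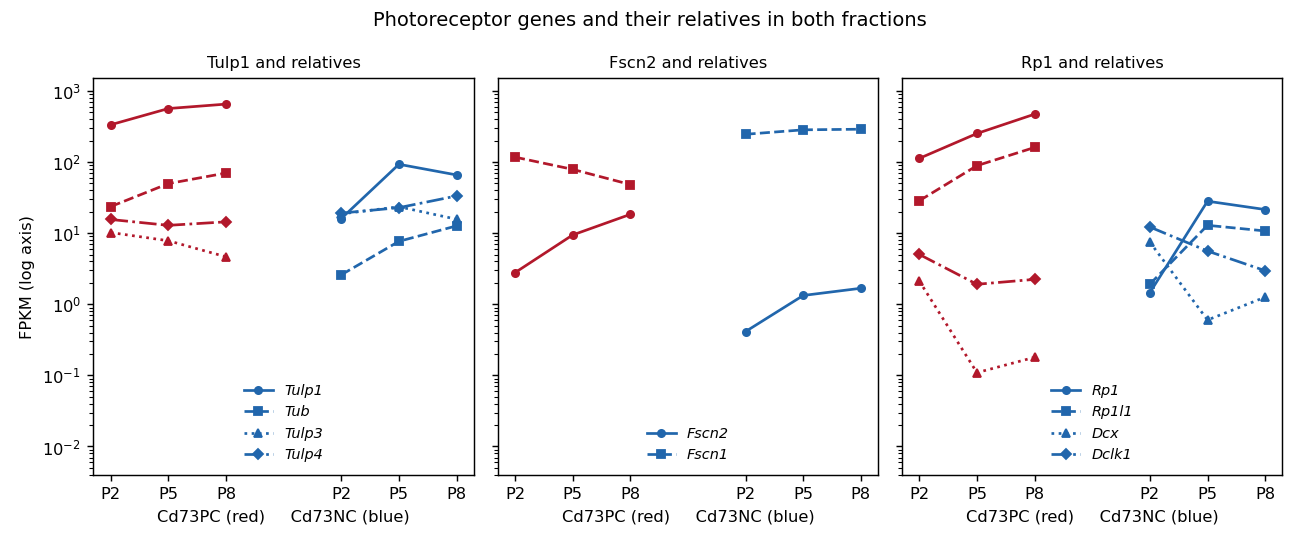
FPKM on a log axis of Tulp1, Fscn2 and Rp1 with their relatives in Cd73PC (red) and Cd73NC (blue) at P2, P5 and P8, 1 library per point, with line and symbol marking the gene. Fscn1, Tulp3, Tulp4, Dcx and Dclk1 are higher in the blue points than in the red ones at each age, whereas Tulp1, Fscn2, Rp1 and Rp1l1 are higher in the red.

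Across the 8 libraries, which share the same dominant contrast between Cd73PC and the rest, the 9 genes had similar profiles. The Pearson correlation of log2(FPKM + 1) between members, given as a description only, was 0.87 to 0.998 over the 36 pairs, with a median of 0.96. Prph2 and Rom1 were the closest pair at 0.998, and Fscn2 and Aipl1 the most distant. Among 8793 genes that reached 10 FPKM in at least 1 library, those most like Prph2 were Pde6g, Sag and Lrit2, and Rom1 had the same 3 in another order. Gm11744 and BC027072 were closest to Rp1, Kcnv2 to Rp1l1 and Ano2 to Tulp1, all at 0.997 or above. For Rd3 it was Zdhhc16, for Prom1 Otud7b, for Fscn2 Prr14 and for Aipl1 Plekhb1, the last at 0.993. By Spearman's rank correlation only 1 of the 27 nearest genes was the same, so these names depend on the measure.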

How the data were processed

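RNA was measured in 8 libraries, 1 per condition. Reads of 36 bases, unstranded and poly(A)-selected, were aligned to mm9 and quantified by the authors, with TopHat2 2.0.8b and Cufflinks 2.1.1 in the submitters' processing notes. The deposited FPKM values, with their bounds, are normalized for length and mapped fragments, and no counts were used. Rows with a failed estimate (4 to 10 per library) were taken as missing, 797 rows of small RNAs were left out, and rows sharing a symbol were summed (234 symbols). Ratios were log2 of FPKM + 1, with a call at 1.5-fold, computed in Python 3.11.15 with pandas 2.3.3 and numpy 2.4.6, and tested on simulated data. Cd73PC and Cd73NC of an age came from the same retinas per the study's text. For this reason limma 3.58.1 (R 4.3.3, mean-variance trend) was also fitted on log2(FPKM + 1) with age as block. The deviations of the 2 fractions from their means over the ages correlated across 13056 genes by 0.668, 0.429 and 0.690 at P2, P5 and P8. These deviations include any change with age common to both fractions, so they cannot show that the pools were shared. Marker, partner and relative lists were written out from known function, but the members and all lists were chosen with earlier results of these data known. The genes named were all 9 members, the 3 genes closest to each by Pearson correlation, their functional partners and relatives, and the 2 highest and 2 lowest of the 24 other outer segment genes. Some items that this rule names are not reported here. The rod marker list shares Pde6a, Pde6b, Pde6g and Cngb1 with the partners. Alternatives were other pseudocounts (0.1 or none), upper-quartile scaling, quantile normalization, rows not summed, a filter at 1 FPKM, separate bounds and a 2-fold threshold. RefSeq promoters (GRCm38.p6) were searched for exact matches on both strands.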

Additional observations from a re-analysis of the deposited data

Results flagged for a closer look

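For 8 of the 9 genes the direction from P5 to P8 differed between the fractions, each being 1 library per age, so that the difference was not tested. The change in Cd73PC minus that in Cd73NC, on the log2(FPKM + 1) scale, was 1.42 for Prom1, 1.29 for Aipl1, 1.27 for Rp1, 1.09 for Rp1l1, 0.81 for Prph2, 0.71 for Rom1 and 0.70 for Tulp1, all higher at P8 in Cd73PC and lower in Cd73NC. For Rd3 it was -0.29, the one gene with the opposite order, and its change in Cd73PC was within its bounds. Only in Prom1 was the change in Cd73NC past 1.5-fold. Among 7821 genes at 10 FPKM or more, 35.7% had opposite directions over this step and 15.2% were up in Cd73PC and down in Cd73NC. The sort gene Nt5e changed by -0.07 in Cd73PC and by -1.64 in Cd73NC. Medians of the 11 rod markers were 0.66 in Cd73PC and 0.25 in Cd73NC, where 4 rose and 2 fell.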

How the results depend on the processing

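No condition has a replicate to omit. In the limma fit that pairs the fractions by age, chosen after seeing the data, 9 genes were higher in Cd73PC with the age block, 2 with no replicate block and 0 with no filter on low values, where the adjusted p-values of the 9 were 0.0734 to 0.105; without 1 pair in turn the count was 7 to 9, lowest without the P5 pair. Another pseudocount or no mean-variance trend left it at 9. The counts of members past the fold threshold at single ages or steps kept within 1.5 times under every alternative run, except that with a 2-fold threshold 0 of the 9 genes were higher in P8 Cd73PC than in P5 Cd73PC, in place of 5. No direction of a called value reversed. Of 81 log2 ratios, 13 moved by over 1.5-fold with no pseudocount and 9 with a pseudocount of 0.1, all in genes with a level under 2 FPKM on the lower side, and none moved under upper-quartile scaling, quantile normalization or without summing rows. The median log2 ratio of expressed genes between the fractions at P5 was -0.18, and -0.07 after upper-quartile scaling. All 36 shares in Cd73NC or against P8 Cd73PC that were recomputed stayed the same in this sense under both scalings. Of the 27 nearest genes, 25 were shared under upper-quartile scaling, 17 under quantile normalization and 1 by Spearman correlation, and the cause was not tested. The absolute depth is unknown, and levels under 1 FPKM are the least certain.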
